A study of Mus musculus with 2 samples.

Results

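Twist1, Twist2 and Prrx1 are 3 transcription factor genes of mesenchyme, the loose embryonic tissue that gives rise to fibroblasts and other stromal cells. They were taken by name, whatever their values, from the authors' comparisons of cell clusters in the stroma of mouse salivary gland organoids, and are 3 of the 5238 genes that occur in any of the 3 tables. All 3 were listed in the table of the control library and in that of the FGF2 library, and Twist2 was the 1 member listed in the table of both libraries after integration. CD-1 mice supplied the glands, and the age label reads embryonic day 16 plus a further 7, for which the sources used here give no unit. The control group was 1 library of organoid stroma without FGF2, for which 5023 cells were captured, and the other group 1 library of organoid stroma with FGF2, a fibroblast growth factor, for which 10107 cells were captured. The sources used here do not say what dose of FGF2 was used or for how long, or how many animals were pooled. Each group is 1 library, so a difference between them could not be tested or checked in a replicate.

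Twist1 and Twist2 are closely related basic helix-loop-helix (bHLH) proteins. Such proteins bind the E-box, the sequence CANNTG, as pairs, usually with an E protein such as the products of Tcf3, Tcf4 and Tcf12, while Id proteins, which lack the DNA-binding part, take up E proteins and keep them from DNA. Twist1 is known for its part in cranial mesenchyme and in epithelial to mesenchymal transition, and Twist2, also called Dermo1, for the dermis and for limiting cytokine genes driven by NF-kappaB. Prrx1 is a paired-related homeobox protein of limb, craniofacial and other connective tissue mesenchyme, and its homeodomain binds TAAT cores. All 3 genes are commonly used to mark fibroblast lineages.

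The positions are those of GENCODE M21 on GRCm38, the assembly also called mm10, the build named in the submitters' processing notes. Twist1 lies on chromosome 12 from 33957671 to 33959829 on the plus strand, with 1 annotated transcript of 2 exons. Twist2 lies on chromosome 1 from 91801461 to 91848028 on the plus strand, with 2 transcripts, and Prrx1 on the same chromosome from 163245119 to 163313710 on the minus strand, with 5 transcripts. Twist2 is overlapped by the antisense gene Gm29100 and the intronic gene Gm29101, and Prrx1 by the antisense gene Gm20471 and, on its own strand, Gm26523 and Gm37644. The sources used here do not say how reads in such overlaps were counted, so a part of either gene's count could belong to them. The longest run of bases shared by the last 500 bases of annotated Twist1 and Twist2 transcripts, the end that a 3' method reads, was 12.

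The bases before the start of each gene are shown because the genes differed in how their share of positive cells moved between the libraries. They are from RefSeq's GRCm38.p6 table, in the direction of the gene, and stop before the first annotated base of the transcript in both RefSeq and GENCODE. Capitals mark matches to TATAAA or TAATTA on either strand. The 3 windows are chr12:33957421-33957670 on the plus strand, chr1:91801211-91801460 on the plus strand and chr1:163313711-163313900 on the minus strand.
Twist1: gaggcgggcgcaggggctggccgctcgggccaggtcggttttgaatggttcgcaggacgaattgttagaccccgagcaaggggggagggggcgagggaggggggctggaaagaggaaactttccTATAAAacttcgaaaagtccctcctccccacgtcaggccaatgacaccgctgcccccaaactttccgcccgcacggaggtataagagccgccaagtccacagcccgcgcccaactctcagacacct
Twist2: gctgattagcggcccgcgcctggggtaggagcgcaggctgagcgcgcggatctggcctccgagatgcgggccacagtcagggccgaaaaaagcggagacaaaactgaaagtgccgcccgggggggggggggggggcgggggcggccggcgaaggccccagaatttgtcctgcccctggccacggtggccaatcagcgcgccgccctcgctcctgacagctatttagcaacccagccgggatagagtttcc
Prrx1: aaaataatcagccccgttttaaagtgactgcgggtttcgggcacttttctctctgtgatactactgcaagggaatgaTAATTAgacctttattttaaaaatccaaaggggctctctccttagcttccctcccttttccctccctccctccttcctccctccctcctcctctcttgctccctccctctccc
The E-box CANNTG, searched on both strands, had 0 matches in each of the 3 windows. It occurred in 66.2% of 32841 windows of 250 bases and in 57.3% of the same windows cut to 190 bases, the length used for Prrx1. TATAAA had 1 match before Twist1 (12.4% of windows of 250 bases) and 0 before Twist2, and TAATTA, a palindrome with 2 TAAT cores, had 1 match before Prrx1 (4.02% of windows of 190 bases). The GC content of the windows was 62.4% for Twist1, 68.8% for Twist2 and 48.9% for Prrx1, beside medians of 52.4% and 51.6% over all windows of 250 and 190 bases. A match describes letters only, and these data do not measure binding.

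Each deposited table sets every cluster against all other cells of the same table. It gives the percentage of positive cells on each side, called the share here, and the natural log of the ratio of the 2 averages, called the log ratio. The averages carry an offset of 1, so the log ratio understates differences of weakly expressed genes. All shares and log ratios given by cluster are values of the authors' deposited tables, while shares of a whole library and means over unlisted clusters were computed from them. A gene is listed for a cluster only if its log ratio is at least 0.25 in size and it meets limits on the share and the authors' p-value for listing. A cluster without an entry for a gene can therefore still express it. Of all pairs of a gene and a cluster, 3.62% were listed in the control table (1.69% higher, 1.93% lower), 2.27% in the FGF2 table (0.785% higher, 1.48% lower) and 9.44% in the integrated table (4.13% higher, 5.31% lower). Clusters were called non-stromal if at least 3 markers from the list of an epithelial, Schwann or glial, leukocyte or endothelial class were listed as higher. These were 5 of 15 control clusters with 5.85% of the cells, and 4 of 17 FGF2 clusters with 4.47%. The other clusters are called stromal because they met none of these classes, whatever their fibroblast markers. Pdgfra, a receptor that marks fibroblasts, had a share of 78.3% in the control library and 84.2% in the FGF2 library, and Epcam, an epithelial adhesion molecule, of 1.85% and 4.54%. Depth per cell is unknown, and the sources used here do not say how doublets were treated.

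Twist2 was found in far more cells of the FGF2 library than of the control library, while Twist1 and Prrx1 differed little. Twist2 was detected in 31.6% of cells without FGF2 and 69.8% of cells with it, a difference of 38.2 percentage points or 2.20-fold. The same share was 71.1% and 62.1% for Twist1, 0.873-fold, and 89.2% and 94.4% for Prrx1, 1.06-fold. By a size rule of 1.5-fold, 1 of the 3 genes was called, beside 22.6% of the 2318 genes compared (7.46% higher and 15.1% lower). Only genes listed for at least 1 cluster in each library could be compared, and these are the genes called measured below. A gene that was not measured may still have been expressed, and the rates do not cover all genes tested. The log2 ratios were 1.14 for Twist2, -0.20 for Twist1 and 0.08 for Prrx1, with a median of -0.08 over all genes compared, and 96.4% of those genes had a lower ratio than Twist2.

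A share cannot pass all cells, so neither Prrx1 nor Twist1 could have been called higher by this rule. The same holds for any other gene with so high a share in the control library. On the scale of odds, the share over its complement, the log2 ratio was 1.04 for Prrx1, 2.32 for Twist2 and -0.59 for Twist1, and the 1.5-fold rule would call all 3. Without the non-stromal clusters, Twist2 had a share of 31.6% in the control and 72.0% in the FGF2 library, Twist1 of 74.5% and 64.3%, and Prrx1 of 93.3% and 97.1%. For Twist2 the control value did not move because it was unlisted in those clusters and was there given the library's own share. The share of a library mixes how many cells use a gene with how much RNA was read per cell, and the 2 cannot be told apart here.

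**Figure D1:**
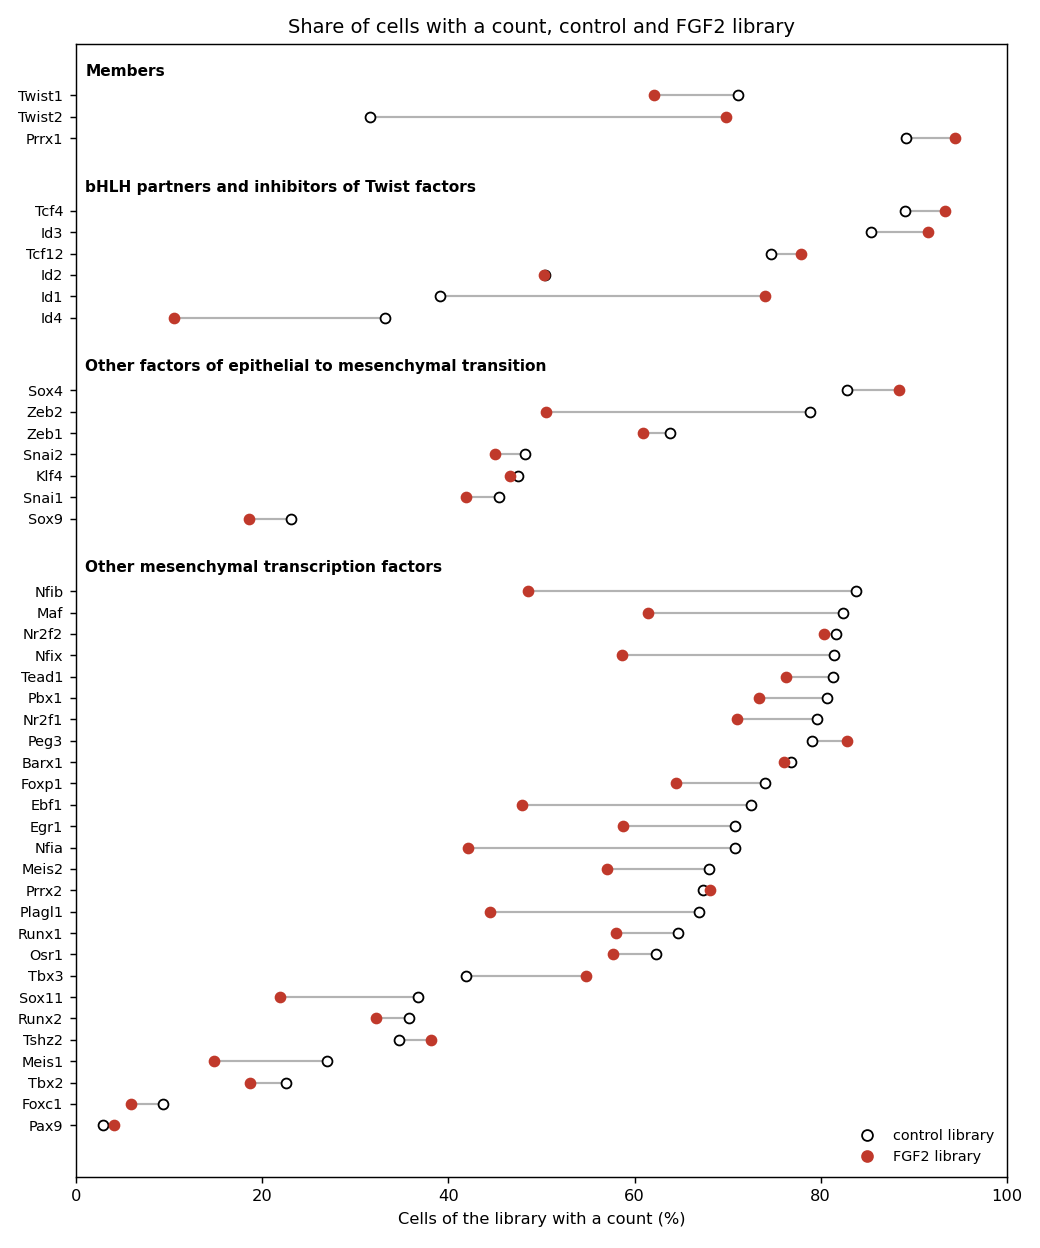
Percentage of cells with a count in the control library (open circles) and the FGF2 library (red) for the 3 members and measured genes of 3 lists of related transcription factors, 1 gene per line. Twist2 moves from 31.6% to 69.8%, while Twist1 and Prrx1 stay within 1.5-fold.

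Prrx1 was the most widely detected member and had the log ratios of largest size in the non-stromal clusters, the lowest -1.58 in the control. Each sets a cluster against all other cells. Because of the offset of 1, these sizes do not rank how sharply the members set such clusters apart. In control cluster 9 the share of Twist1 was 2.1% against 73.1%, and that of Prrx1 16.2% against 91.3%. In the authors' deposited table of the control library it was listed in 7 of 15 clusters, higher in 2 and lower in 5 (1.69% and 1.93% of all pairs). The 5 lower ones were exactly the 5 non-stromal clusters. There its share was 16.2% in the epithelial-like cluster 9 (led by Wfdc18, Krt18 and Krt8), 26.9% in the epithelial-like cluster 13 (Igfbp5, Krt14 and Itga6), 27.6% in the Schwann or glial-like cluster 10 (led by Gap43 and Apod), 28.3% in the leukocyte-like cluster 11 (Ccl6, Pf4 and Lyz2) and 33.3% in the endothelial-like cluster 14 (Fabp4, Ctla2a and Cd93). The other cells of the library had 89.4% to 91.3% in these 5 comparisons. Clusters 13 and 14 held 0.517% and 0.298% of the control cells, so their shares rest on few cells. Whether shares near these values reflect expression was not tested, and they are not read as expression here. No single background level for the library could be set without the depth of each cluster.

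In the same table, the log ratio of Prrx1 was lowest in the Schwann or glial-like cluster, at -1.58, an average (plus 1) 4.85 times lower than in the other cells. It was -0.92 in the epithelial-like cluster 9, although that cluster had the smallest share. The genes listed for cluster 9 had a median share of 7% there against 67.7% in the other cells, and the part of this in the low Prrx1 share was not tested. The 2 control clusters with more Prrx1 were cluster 2 (Spp1, Cxcl13 and Saa3), at 99.7% against 87.5% with a log ratio of 0.32, and the dividing cluster 8 (Cenpf, Mki67 and Prc1), at 98.3% against 88.7% with a log ratio of 0.29. The 8 unlisted clusters, 75.4% of the control cells, had a mean share of 91.8%.

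With FGF2, Prrx1 was again lower in every non-stromal cluster. In the authors' deposited table of the FGF2 library it was listed in 8 of 17 clusters, 2 higher and 6 lower (0.785% and 1.48% of all pairs). Its share was 19.4% in the Schwann or glial-like cluster 16 (Apod, Atf3 and Postn), 33.3% in the epithelial-like cluster 11 (Chil1, Fxyd3 and Krt18), 37.5% in the mast cell-led cluster 15 (Cma1, Mcpt4 and Mcpt2) and 58.5% in the other leukocyte-like cluster 14 (S100a9, S100a8 and Cstdc5), against 94.7% to 96.2% in the other cells. In cluster 14 the fibroblast marker Pdgfra also had a share of 50.8%, and in cluster 15 of 23.4%. The average of Prrx1 (plus 1) in cluster 16 was 7.36 times lower than in the other cells, the farthest from them of all members in all 3 tables. The genes listed for cluster 16 had a median share of 16.1% there against 62.7% in the other cells. For cluster 15 the medians were 21.9% and 62.75%. The part of this in the low shares of the 3 members in these clusters was not tested. Clusters 14, 15 and 16 held 0.651%, 0.639% and 0.307% of the FGF2 cells, so their values rest on few cells.

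The other FGF2 clusters in the authors' deposited table differed less. Cluster 13 (Acta2, Tagln and Actb), whose listed genes had a median share of 12% against 66.5%, showed Prrx1 in 70.4% of its cells. Clusters 5 (Igfbp5, Cd24a and Nr4a2) and 7 (Igfbp5, Il11 and Slpi) had it at 99.5% and 99.8%, with log ratios of 0.49 and 0.26. Cluster 0 (Nptx1, Cdkn2a and Ctsl) had a larger share than the other cells, 99% against 93.5%, and yet a lower average, with a log ratio of -0.28. The 9 unlisted FGF2 clusters had a mean share of 96.7%.

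**Figure D2:**
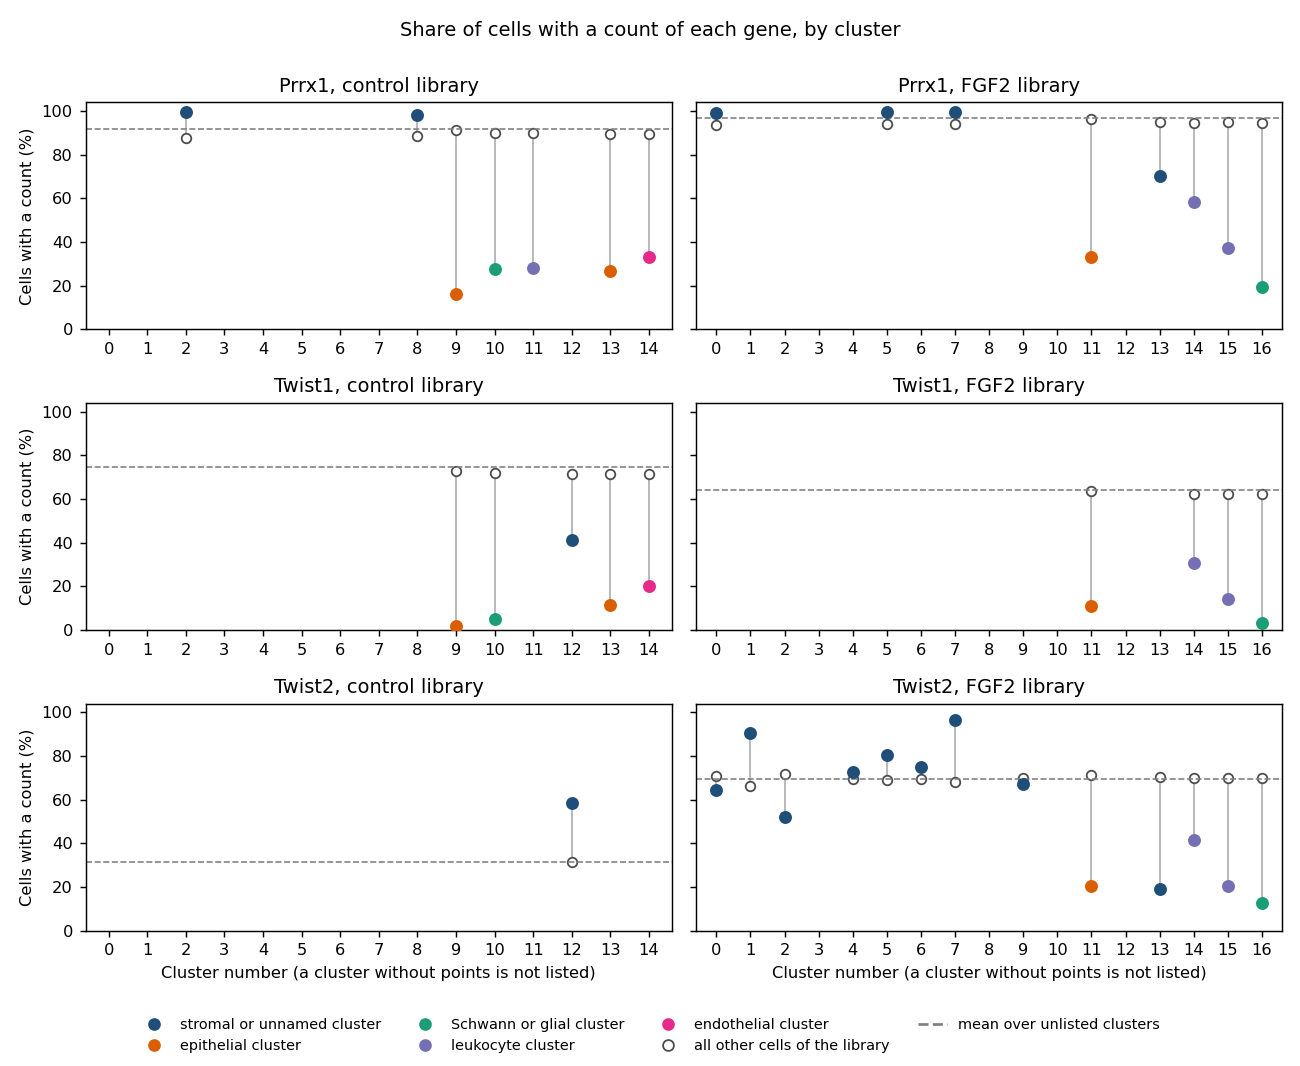
Percentage of cells with a count of Prrx1, Twist1 and Twist2 in each cluster for which the gene is listed (filled circles, coloured by class) and in all other cells of the library (open circles). The dashed line is the mean over the unlisted clusters; Prrx1 in the 5 non-stromal control clusters lies between 16.2% and 33.3%, and Twist2 in the FGF2 library spreads from 12.9% to 96.6%.

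Twist1 was lower in most non-stromal clusters and in 1 other cluster. In the authors' deposited tables it was listed in 5 control and 4 FGF2 clusters, as lower in each of them and as higher in none. In the control library its share was 2.1% in the epithelial-like cluster 9, 5.2% in the Schwann or glial-like cluster 10, 11.5% in the epithelial-like cluster 13 and 20% in the endothelial-like cluster 14, against 71.3% to 73.1% in the other cells. The log ratios in these 4 clusters lay between -0.65 and -0.58. The leukocyte-like control cluster 11 did not list Twist1, although it listed Prrx1 and 21 of 58 other mesenchymal factors as lower and 0 of the 58 as higher, beside 5.29% and 1.63% of all genes tested.

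The fifth control cluster with less Twist1 met no other class. This was cluster 12, a small cluster with 0.828% of the cells led by Ccl2, Mt1 and Hmox1, in which 1 of 7 fibroblast markers was listed as higher and 3 as lower. Of 28 mesenchymal state genes, 5 were higher there and 11 lower, among the lower ones the collagen genes Col1a1, Col1a2 and Col3a1 (2.5% and 2.02% of all genes tested were higher and lower). Twist1 was found in 41.5% of its cells against 71.4% elsewhere, with a log ratio of -0.32. The 10 unlisted control clusters had a mean share of 74.7%. In the FGF2 library the 4 listed clusters were the 4 non-stromal ones. Twist1 was found in 3.2% of cluster 16, 11% of cluster 11, 14.1% of the mast cell-led cluster 15 and 30.8% of cluster 14, against 62.2% to 63.6% of the other cells. The 13 unlisted FGF2 clusters had a mean share of 64.3%. Cluster 14, the highest of the 4, was also the one with Pdgfra in 50.8% of its cells.

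Twist2 had an entry in 1 of 15 control clusters and in 13 of 17 FGF2 clusters, the fewest and the most of the 3 members. The authors' deposited table of the control library listed it in the small cluster 12, at 58.5% against 31.4% in the other cells with a log ratio of 0.32. This is the same cluster in which Twist1 was lower, and the only cluster in the 2 library tables where the 2 paralogs were listed in opposite directions. The 14 unlisted control clusters had a mean Twist2 share of 31.4%. Because of the offset of 1, a gene at so low an average can differ between clusters without reaching the limit for listing.

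In the authors' deposited table of the FGF2 library, Twist2 was higher in 3 clusters, all stromal, and lower in 10. Cluster 7 had the highest share of all, 96.6% against 68.1% in the other cells, with an average (plus 1) 2.20 times that of the other cells. Cluster 1 (Cck, Odc1 and Tac1) followed at 90.7% against 66.4% and a log ratio of 0.46, and cluster 5 at 80.4% against 69% and 0.34. Clusters 7 and 1 were also those in which Il11, a cytokine of activated fibroblasts, had log ratios of 1.69 and 0.65, and Hgf, the gene of hepatocyte growth factor, of 0.59 and 0.66.

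The authors' deposited table also listed stromal clusters with less Twist2. Cluster 2 (Igfbp3, Lpl and Clu), in which 4 of 7 fibroblast markers were listed as higher and 0 as lower, had Twist2 in 51.9% of its cells against 72%, with a log ratio of -0.39. The share was 64.3% in cluster 0, 67% in the dividing cluster 9 (Top2a, Ube2c and Cenpa), 72.5% in the contractile cluster 4 (Acta2, Tagln and Thbs1) and 75.1% in cluster 6 (Cavin2, Cemip and Ccl2), with log ratios from -0.43 to -0.26. In the non-stromal clusters the share was 12.9% in cluster 16, 20.3% in each of clusters 11 and 15, and 41.5% in cluster 14, against 70% to 71.3% elsewhere. Cluster 13, with its low listed shares, had 19%. From cluster 16, with few cells and low listed shares, to cluster 7 the average (plus 1) spanned 4.54-fold. The 20.9% of FGF2 cells in the 4 unlisted clusters had a mean share of 69.3%, close to the library's own. Cluster 14, with its Pdgfra share of 50.8%, again had the highest of the 4 non-stromal shares. The leukocyte-like control cluster did not list Twist2, so its share there could not be set beside those with FGF2.

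In 3 of these FGF2 entries the share and the average pointed in opposite directions. Prrx1 in cluster 0 (5.5 points more cells, log ratio -0.28), Twist2 in cluster 4 (2.9 points more, -0.43) and Twist2 in cluster 6 (5.6 points more, -0.26) were found in more cells than elsewhere but at a lower average. Over the whole FGF2 table, 11.5% of the entries had such opposite signs, and 14.3% in the control table, where no member did. If the sign of the share is used, Twist2 was higher in 5 FGF2 clusters instead of 3. The depth of each cluster is unknown, and its part in these signs was not tested.

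**Figure D3:**
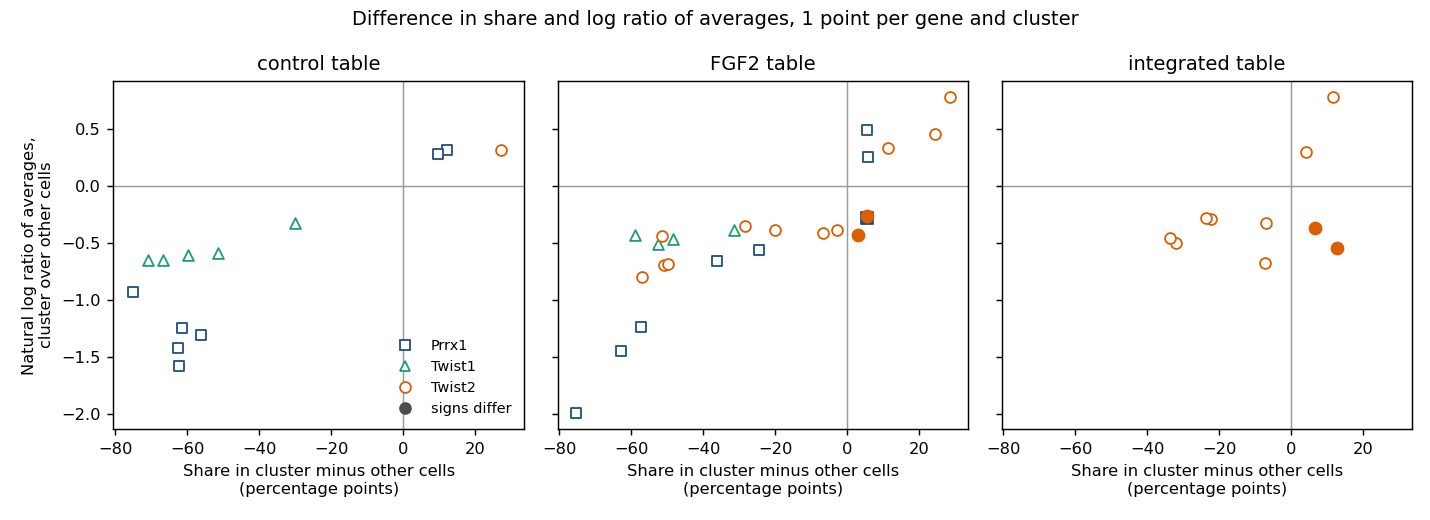
Natural log ratio of averages against the difference in share (cluster minus other cells, percentage points) for each listed cluster of each member, 1 panel per table. Filled symbols mark the 3 FGF2 and 2 integrated entries in which a larger share goes with a lower average.

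In the authors' deposited table of the integrated cells, which the authors computed after joining the libraries, so that its values are batch-integrated and not expression, Twist2 was listed in 10 of 14 clusters, 2 higher and 8 lower. Twist1 and Prrx1 were not listed there. The table tested 2802 genes against 19070 and 20056 in the library tables, so an unlisted gene may not have been among those tested. Twist2 had its highest log ratio, 0.78, in integrated cluster 1 (Igfbp5, Slpi and Il11), at a share of 89.4% against 77.9%, and the second, 0.30, in cluster 6 (Il33, Ero1l and Slc2a1). The lowest log ratio, -0.68, was that of the Schwann or glial-like cluster 12, followed by -0.54 in the contractile cluster 2 (Acta2, Tagln and Thbs1). In cluster 2 the share was nevertheless 90.6%, above the 77.9% of the other cells, and in the dividing cluster 5 it was 86.1% against 79.4% at a log ratio of -0.37. The epithelial-like cluster 9 (48.9%), the mast cell-led cluster 11 (46.6%) and the endothelial-like cluster 13 (56.2%) had lower shares. Over all integrated cells the share was 79.8%, above the 31.6% and 69.8% of both libraries, so a share of this table does not count cells with a count and cannot be set beside those of the library tables.

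Where members were listed together they went the same way, except Twist1 and Twist2 in control cluster 12. In the FGF2 library Twist2 and Prrx1 were both listed in 8 clusters, all 8 in the same direction, which is each cluster of Prrx1 and 8 of the 13 of Twist2. Twist1 shared its 4 FGF2 clusters with both, all as lower. In the control library Twist1 and Prrx1 shared 4 clusters, all as lower, out of 5 and 7. Clusters that Twist1 shared with another member were all non-stromal, except control cluster 12. Prrx1 and Twist2 also shared stromal clusters of the FGF2 library, both higher in clusters 5 and 7 and both lower in clusters 0 and 13.

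The genes listed most like each member were ranked by the share of clusters with the same direction among those that list either gene. For Twist2 in the FGF2 library these were Neat1 (12 of 13 clusters), Dcn (12 of 14), Hgf (11 of 13), Pi15 (11 of 13) and Sat1 (11 of 14), out of 906 genes considered. Neat1 is a long noncoding RNA of nuclear paraspeckles, Dcn the proteoglycan decorin and Sat1 an enzyme of polyamine breakdown. The log ratios of Sat1 and Hgf lay on average 0.11 from those of Twist2 where both were listed, and those of Dcn 0.54. For Prrx1, Dnm3os, Pcdh7, Cd302 and Angptl4 shared 6 of 7 control clusters and Prrx2, its paralog, 6 of 8, while Frzb (8 of 9), Mark1 (7 of 8), Ptgs2, Cebpb and Srpx2 (8 of 10 each) led in the FGF2 library. For Twist1, Tmem119 and Hacd4 had the same 5 control clusters, followed by Slc25a4, Pdlim2 and Selenom (5 of 6 each). In the FGF2 library Ugdh, Akr1b8, Ddr2, Kif2a and Ak1 were closest among 9 genes with the same 4 clusters. These counts are over clusters of 1 library, which share depth and RNA, and are a description.

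**Figure D4:**
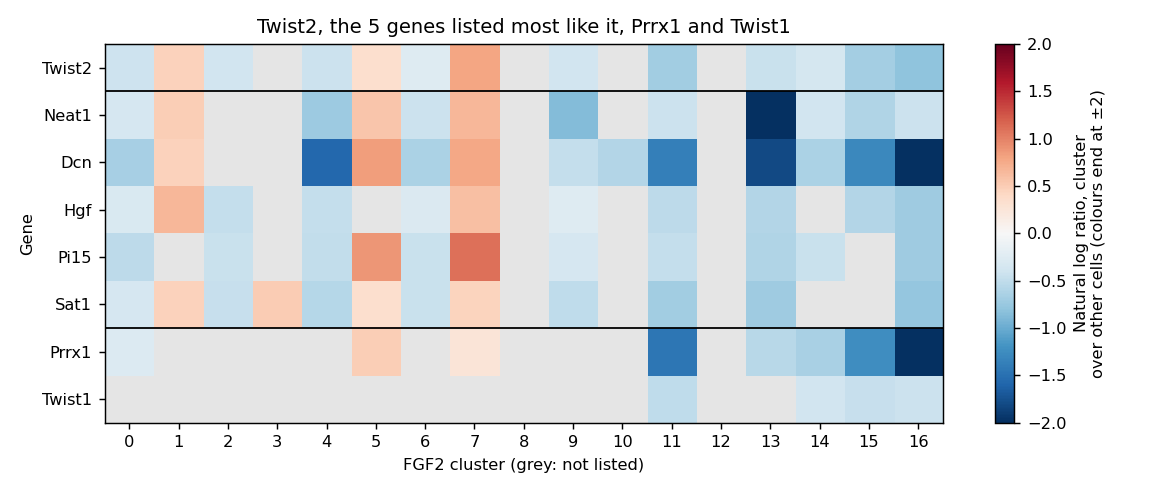
Natural log ratio of averages, cluster over other cells, in the 17 clusters of the FGF2 library for Twist2, the 5 genes listed most like it, Prrx1 and Twist1 (grey where not listed, colours end at 2 in either direction). Clusters 1, 5 and 7 are red for Twist2, and clusters 0, 2, 4, 6, 9, 11 and 13 to 16 are blue.

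The E proteins and Id proteins that pair with or withhold partners from Twist proteins were called in both directions between the libraries. Of 13 genes on this list 6 were measured in both libraries, 1 higher and 1 lower by the 1.5-fold rule, with a median log2 ratio of 0.06. Over all 2318 genes compared, 7.46% were higher and 15.1% lower with a median of -0.08. The E protein genes Tcf4 (89.1% of control and 93.4% of FGF2 cells) and Tcf12 (74.7% and 77.8%) lay within the rule, as did Id2 (50.4% and 50.2%) and Id3 (85.5% and 91.5%). Id1 was found in 39.1% and 74.0% of the cells, and Id4 in 33.2% and 10.6%. In FGF2 cluster 7, where Twist2 was highest, the authors' deposited table listed Tcf4 (log ratio -0.29), Tcf12 (-0.49) and Id1 (-0.30) as lower and Id2 (0.29) as higher, 3 and 1 of 13 genes beside 0.658% lower and 0.883% higher of all genes tested. Hand2, a bHLH factor of sympathetic neurons and heart, was listed in the control table alone.

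Other factors of epithelial to mesenchymal transition were close to even between the libraries. Of 13 genes 7 were measured in both, 0 higher and 1 lower (median log2 ratio -0.10), beside 7.46% and 15.1% of all genes compared. The lower one was Zeb2 (78.9% and 50.5%), a zinc finger repressor that is also a gene of Schwann cells, found in 100% of the Schwann or glial-like control cluster 10. Snai1 (45.5% and 41.9%), Snai2 (48.3% and 45.0%), Zeb1 (63.8% and 60.9%), Sox4 (82.8% and 88.4%), Sox9 (23.1% and 18.6%) and Klf4 (47.5% and 46.6%) lay within the rule. Snai1, a zinc finger factor that represses E-cadherin, was listed as higher in FGF2 cluster 7 of the authors' deposited table, at 67.5% against 40.2%. In the epithelial-like control cluster 9, Zeb1 and Zeb2 had shares of 2.1% and 4.2%, beside 2.1% for Twist1.

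Among 58 other mesenchymal transcription factors, 27 were measured in both libraries, 0 higher and 8 lower, with a median log2 ratio of -0.20, beside 7.46% higher and 15.1% lower of all genes compared. Among those with the largest differences were Meis1 (27.0% and 14.9%), a homeobox partner of HOX proteins, and the nuclear factor I genes Nfib (83.8% and 48.6%) and Nfia (70.8% and 42.2%). Prrx2, the paralog of Prrx1, had 67.3% and 68.1%, and Barx1, a homeobox gene of craniofacial and stomach mesenchyme, 76.8% and 76.1%. Across clusters the list was mixed. In the epithelial-like control cluster 13, 14 of the 58 were listed as higher and 9 as lower (3.88% and 3.16% of all genes tested), the higher ones including Runx1, Meis1 and Pax9, which were chosen as examples after their values were seen. In FGF2 cluster 13, 14 were lower and 0 higher (4.77% and 1.51%).

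Most genes of the mesenchymal state lay within the 1.5-fold rule. Of 28 mesenchymal state genes 25 were measured in both libraries, 1 higher and 5 lower (median log2 ratio -0.04), near the 7.46% and 15.1% of all genes compared. The largest differences were those of the matrix gene Postn (71.0% and 17.3%), the collagen gene Col3a1 (92.4% and 32.0%) and the contractile genes Acta2 (89.9% and 31.9%) and Tagln (79.2% and 39.2%), while Vim, the intermediate filament vimentin, had 95.8% and 95.4%. Of 22 epithelial state genes 10 were measured in both, 4 higher and 1 lower (median 0.28), beside 7.46% and 15.1% of all genes compared. The largest differences were those of the keratin gene Krt18 (4.22% and 13.3%), Epcam, Spint2 (2.78% and 6.54%) and Krt7 (7.56% and 4.24%).

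On a list of NF-kappaB and cytokine genes, 5 of the 7 measured were called higher with FGF2, and all 5 were cytokine genes. The list was drawn up because Twist proteins are known to limit some of its genes. Of 17 genes 7 were measured in both libraries, 5 higher and 0 lower, with a median log2 ratio of 0.79, beside 7.46% higher and 15.1% lower of all genes compared. Those called included Il11 (11.8% and 77.5%), Ccl8 (24.4% and 52.1%), Cxcl1 (12.2% and 25.6%) and Ccl2 (39.9% and 69.2%). The inhibitor gene Nfkbia (46.1% and 53.8%) and Nfkbiz (41.1% and 45.8%) lay within the rule. Nfkb1, Nfkb2, Rela and Relb were listed in the control table alone, so they could not be compared. In the authors' deposited control table, cluster 12, the 1 cluster listed with more Twist2 and less Twist1, had 9 of these 17 genes listed as higher and 0 as lower, beside 2.5% and 2.02% of all genes tested. The 9 were the subunit genes Nfkb1 (61% against 50.1%), Nfkb2 (46.3% against 28%), Rela (68.3% against 43.9%) and Relb (53.7% against 26.8%), with Nfkbia, Ccl2, Ccl7, Cxcl1 and Il11. Ccl2 is also among the leading genes of cluster 12. The list was chosen with earlier results of these data known, and these genes were picked after their values were seen. The count is therefore only a description. The FGF2 clusters with more Twist2 were mixed for the same list. Cluster 1 had 3 higher and 0 lower (0.374% and 0.344% of all genes tested). Cluster 5 had 1 higher and 2 lower (0.883% and 0.583%), the lower ones being Ccl2 (log ratio -1.04) and Ccl7 (-0.84). Cluster 7, where Twist2 was highest, had 2 higher, Ccl8 (0.66) and Il11 (1.69), and 2 lower, Ccl2 (-0.46) and Ccl7 (-0.26). Of the 58 other mesenchymal factors, 10 were lower and 1 higher in control cluster 12. That cluster holds under 1% of the control cells, and its values have no replicate.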

How the data were processed

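Single-cell RNA libraries of organoid stroma, 1 control and 1 FGF2, were made with a 10x Chromium 3' kit, per the labels' protocols, and processed with Cell Ranger 4.0 on mm10, per the submitters' processing notes. The sources used here name no filter, normalization, clustering or doublet step, nor the tool behind the comparisons. Per the file headers, the authors deposited for each cluster the natural log of the ratio of averages, the fraction of positive cells on either side (printed as percent), and p-values over cells. Since cells of 1 library are no replicates, the authors' p-values were left out. Depth per cell is unknown. Tables were assigned to libraries by their names, each matching 1 sample's description.

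The natural base was checked on genes at 0 in several clusters, for which all entries should return 1 average. The median coefficient of variation was 0.00169% over 8 control genes, against 0.0488% on base 2, and 0.003% against 0.0334% over 5 FGF2 genes. Each cluster's part of all cells came from least squares over genes listed in at least 2 clusters (2077 control and 1490 FGF2 genes), and each gene's share over a library followed from it; estimates from different clusters of a member differed by at most 0.0844 percentage points. In tables simulated with known parts, a share erred by at most 0.0517 (control, 4419 genes) and 0.0519 points (FGF2, 3058 genes). A mean over unlisted clusters is what the listed clusters leave of the library share.

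Libraries were compared by log2 ratio of shares with a pseudocount of 0.1 points and a size rule of 1.5-fold. The genes compared were those listed for at least 1 cluster in each library, with a share of at least 0.5% in 1 library. No test was possible with 1 library a group. The members, gene lists and markers were chosen with earlier results of these data known. Named genes were the members, the 5 genes most like each, all measured genes of the bHLH and transition lists and up to 4 called genes of each other list (1 of them is not reported here); leading genes and markers say what a cluster is. Prrx2, Barx1, Vim, Hand2, Nfkbia, Nfkbiz, the cluster values of Il11 and Hgf, and the genes listed for control clusters 4, 12 and 13 were picked after their values were seen. Python 3.11.15, numpy 2.4.6 and pandas 2.3.3 were used.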

Additional observations from a re-analysis of the deposited data

How the results depend on the processing

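No paired analysis was possible because each group has 1 library, and for the same reason no replicate could be left out. The alternatives were the pseudocount (0 or 1 point), odds, the clusters left out, the genes behind the cluster parts, the size rule, the base of the log and the direction of a cluster entry. Of the recomputed values for comparisons, 119 kept their call or size and 17 moved. Some of the 119 could not have moved, such as those of Twist1 and Prrx1 under the stricter size rule. On the scale of odds the log2 ratios were -0.59 for Twist1, 2.32 for Twist2 and 1.04 for Prrx1. Each was larger in size than the log2 ratio of shares, since odds are another scale. Read as base 2, the span of averages (plus 1) would be 3.58-fold for Prrx1 in the control table, 5.43-fold for Prrx1 and 2.87-fold for Twist2 in the FGF2 table, instead of 6.29, 11.5 and 4.54. With the direction from the share of cells, Twist2 was higher in 5 FGF2 clusters, and against the whole library Prrx1 was higher in 1. With a size rule of 2-fold, which Twist2 passes, all genes compared had 96 higher and 174 lower, against 173 and 351, the bHLH list had 0 higher, the transition list 0 lower, the mesenchymal factors 1 lower, the mesenchymal state genes 0 higher, the epithelial state genes 0 lower and the NF-kappaB and cytokine genes 3 higher. With a share of at least 5% in 1 library, 2 epithelial state genes were higher instead of 4, since fewer were compared. Leaving out control clusters 4 and 9 and FGF2 clusters 10 and 13, an alternative chosen after the data were seen, kept every call on the members. Shares of rare genes and of clusters under 1% of a library rest on few cells.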

Other observations

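Cluster 4 of the control library, with 10.6% of the cells, had the lowest listed shares of the large clusters (a median of 10.9% against 84.8% in the other cells) and listed 398 genes as lower, among them the mesenchymal factors Nr2f1, Nr2f2, Peg3 and Maf, but none of the 3 members. FGF2 cluster 10, with 3.51% of the cells and 198 genes listed as lower, listed none of them either. FGF2 cluster 13, with 1.41% of the cells, listed Prrx1 (log ratio -0.56) and Twist2 (-0.44) as lower but not Twist1. No value of the members is given for the first 2.

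Twist1 was unlisted in the leukocyte-like control cluster 11, where Prrx1 was at 28.3% and Pdgfra at 17%, but listed at 14.1% and 30.8% in both leukocyte-like FGF2 clusters. An unlisted entry has a log ratio under 0.25 in size or missed the authors' other limits, so the share of Twist1 in that cluster is not known.

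In the integrated table Hgf was listed for the same 10 clusters as Twist2, in the same direction in each, with log ratios of 0.77 in cluster 1 and 0.33 in cluster 6. It was picked after its values were seen, and also follows Twist2 in the FGF2 table, which rests on cells of the same library.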
